A study of Mus musculus with 6 samples.

Results

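Transcripts of the homeobox genes outside the HOX clusters and of the T-box genes were followed in mouse embryonic fibroblasts (MEFs) of 2 genotypes, WT and Yme1l-/-, with 3 cultures of each. The genes were found by name alone: loci whose symbol is that of a Dlx, Msx, Nkx, Barx, Emx, Lhx, Lmx, Pax, Irx, Meis, Pbx, Pitx, Prrx, Alx, Otx, Shox, Gsc or Tbx gene (a family prefix with or without a number and a final letter) or of a relative of Six2. The rule took 92 of the 51499 loci of the count table. Of these, 91 are homeobox, T-box or PAX factors (Pax1 and Pax9 carry a paired domain without a homeodomain), and 1, Paxx, is a DNA end-joining repair gene whose symbol only resembles the PAX names. The YME1L protein is a protease that sits in the inner membrane of mitochondria and uses ATP. All 6 cultures were cells immortalized with SV40 large T antigen, and the labels give the WT cells as Yme1l fl/fl. Per the study's methods, the cells carried a loxP-flanked Yme1l gene that Cre could remove, and lines of either genotype are clones from Cre-treated cells. A difference between clones and a difference between genotypes cannot be told apart, and the p-values below measure the spread between 3 cultures.

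Homeodomain and T-box proteins bind DNA and set the regional identity of embryonic cells, so a fibroblast keeps in its set of these factors a record of where in the embryo it arose. They are classed by what accompanies the DNA-binding domain: PAX proteins carry a paired domain, LIM proteins a pair of zinc-binding LIM domains, Six2 and its relatives a domain of their own for protein contacts, and the TALE proteins (Meis, Pbx, Irx) a homeodomain with a loop of extra residues that lets Meis and Pbx act as partners of HOX proteins. In limb and facial mesenchyme, Prrx1, Prrx2, Shox2, Alx4, Lmx1b, Tbx3, Tbx5 and Tbx15 are well-known members.

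Library totals were 33180867 to 34012520 fragments in the WT libraries and 34624075 to 49351107 in the Yme1l-/- libraries. Yme1l1, the targeted gene, was at 183 to 192 CPM (fragment counts scaled to library size with TMM factors) in WT and at 37.9 to 40.6 CPM in Yme1l-/- MEFs, a log2 fold change of -2.27 ± 0.05 (SE) in Yme1l-/- over WT. Among fibroblast markers, Col1a1, Col1a2, Fn1 and Vim were each at 1010 CPM or more in all 6 libraries, whereas Thy1, Lum and Fap held at most 11 fragments in any library. The 12 fibroblast markers summed to 10960 to 11520 CPM in WT and to 6724 to 7207 CPM in Yme1l-/- MEFs, with 7 of 9 tested called lower and 1 higher, beside 34.1% and 33.6% of all loci tested. WT replicate 2 stood apart in Col3a1, at 301 CPM against 86.3 and 91.1 CPM in the other WT libraries, in Dcn (7.85 against 1.57 and 1.56 CPM) and in Lum (11 fragments against 2 and 1). Of the 8 epithelial markers 2 were tested, and both were called lower. Krt18 was at 31.0 to 33.2 CPM in WT and at most 0.0589 CPM in Yme1l-/- MEFs, and Epcam had 35 to 50 fragments in each WT and 2 to 5 in each Yme1l-/- library, while Cdh1 and Krt8 held at most 15 fragments in any library. Both markers passed the filter only through WT. Defining markers of blood (Ptprc, at most 1 fragment), neural crest (Sox10, at most 1), endothelium (Pecam1, at most 10) and muscle (Myog, 0) were at or near 0. The sums over these lists were 1.80 to 1.99 CPM in WT and 3.74 to 4.50 CPM in Yme1l-/- MEFs for 6 blood markers, 0.949 to 1.56 and 1.94 to 2.17 CPM for 6 endothelial markers, 0.398 to 0.604 and 2.2 to 3.24 CPM for 5 muscle markers, and 14.9 to 17.1 and 11.98 to 13.3 CPM for 7 neural and neural crest markers. Des of muscle (log2 fold change 2.60), Cd68 of macrophages (1.04) and Kdr of endothelium (0.72) were called higher, each as the one tested marker of its list, and the merged locus of the neuronal gene Elavl3 was called lower (-0.43). In bulk RNA, fewer cells that express a factor and less of its RNA per cell cannot be told apart. Whether these marker differences had a part in the results below was not tested.

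The factors found in these cells differed between the genotypes in both directions, often from near absence to a clear level. Pax3, Tbx3, Irx1 and Tbx5 were higher in Yme1l-/- MEFs, and Tbx15, Prrx1, Lhx9, Alx4, Six2, Pax9 and Nkx2-3 were lower. Of the 92 loci, 47 passed the filter on low counts, and 45 did not, of which 17 had no fragment in any library. Of the 47, 25 were called higher and 18 lower at an adjusted p under 0.05 (edgeR's quasi-likelihood test, Benjamini-Hochberg adjustment over 13867 loci), and 4 were not called. Each change is given as the log2 fold change of Yme1l-/- over WT with its standard error (SE). Paxx itself rose by 1.12 ± 0.11 log2 units from a mean of 3.50 to 7.63 CPM. Leaving Paxx aside, the counts were 24 higher and 18 lower of 46. Among all 13867 loci, 33.6% were called higher and 34.1% lower, 67.7% in all, against 91.5% of the 47 members. Changes of at least 2-fold were called for 18 members higher and 11 lower, together 61.7% of the 47, beside 9.1% and 8.63% of all loci and 17.7% in both directions. Changes of at least 4-fold were called for 44.7% of the members and 8.39% of all loci. The median absolute log2 fold change was 1.34 over the members and 0.38 over all loci tested, while the median signed value was 0.43 and -0.0041.

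**Figure D1:**
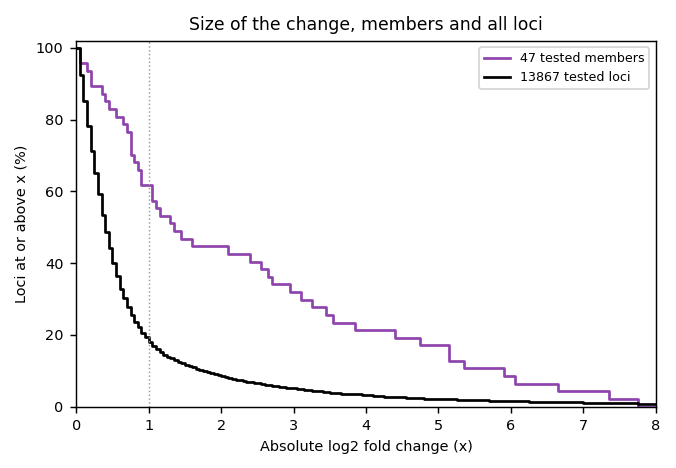
Share of loci (%) whose absolute log2 fold change between Yme1l-/- and WT MEFs is at or above the value on the x axis, for the 47 tested members and for all 13867 tested loci. The dotted line marks a 2-fold change. The curve of the members lies above that of all loci from 0.05 to 7.7, with medians of 1.34 and 0.38. From 7.75 on no member remains, while 0.84% of all loci do at that value. The members include the 13 genes that passed the filter through only 1 genotype.

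The filter on low counts bears on these shares. It required 0.291 CPM (before TMM scaling) in at least 3 libraries, and 13 of the 47 tested members (27.7%) met it in all libraries of only 1 genotype, the one in which they are higher, as did 9% of all tested loci. These genes entered the test through their high group, so their calls are not support for a difference. They are Nkx3-2, Pax2, Gsc, Lhx1, Six3, Tbx2, Nkx2-5, Irx3, Pax9, Lhx9, Six2, Alx4 and Nkx2-3, of which 12 were called at least 2-fold changed, and their changes are given without a p. The smallest of these 12 changes was that of Nkx2-5 (log2 fold change -2.65). All 12 are therefore also in the share of at least 4-fold changes, which is to that extent not support for a difference. With the filter set to 10 fragments in every library, 34 members remained, of which 30 (88.2%) were called, against 68.1% of the 12493 loci then tested. At least 2-fold changes were then 13 higher and 4 lower, 17 of the 34 or 50%, beside 12.7% of the loci. The libraries of the genotypes did not overlap for 43 of the 47 members (91.5%), beside 71.9% of all loci. Without the filter the median log2 fold change of the members was 0.11. The counts of calls by class that follow stand beside the same 67.7% of all loci called, 33.6% higher and 34.1% lower, and include the 13 genes.

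**Figure D2:**
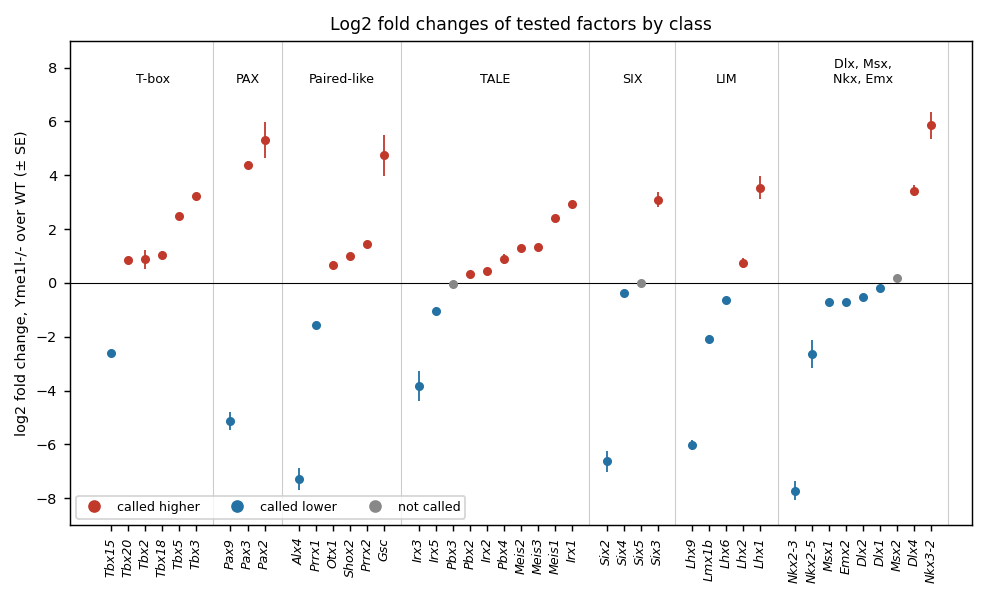
Log2 fold changes (Yme1l-/- over WT, y axis) with their standard errors for tested factors, ordered within their protein class (x axis), with Paxx left out. In each of the 7 classes at least 1 factor is called higher and at least 1 called lower. Among Six2 and its relatives only Six3 is called higher, and among the PAX genes only Pax9 is called lower. Both passed the filter only through the genotype in which they are high, so these calls are not support for a difference.

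Of the 13 paired-like genes 7 were tested, with 5 called higher and 2 lower, and the paralogues Prrx1 and Prrx2 changed in opposite directions. Prrx1 and Prrx2 are closely related activators of limb and facial mesenchyme with overlapping roles. Prrx1 was at 196, 235 and 216 CPM in the WT libraries and at 66.4, 73.2 and 78.8 CPM in the Yme1l-/- libraries. Prrx2 was at 18.6, 17.9 and 19.9 CPM in WT and at 51.3, 50.4 and 50.7 CPM in Yme1l-/- MEFs. The libraries of the genotypes were far apart for both genes, and they lay on opposite sides. Prrx1 fell by 1.57 ± 0.08 (SE) on the log2 scale (adjusted p = 3.84e-08), and Prrx2 had a log2 fold change of 1.43 ± 0.06 (adjusted p = 2.16e-09). Per kilobase of exon, Prrx2 made up 33.1 ± 2.60% (SD, n = 3) of the sum of both in WT and 79.8 ± 1.48% in Yme1l-/- MEFs. Not divided by length, fragments of both summed to 234.5 ± 19.2 CPM in WT and 123.6 ± 5.92 CPM in Yme1l-/- MEFs. This sum weights Prrx1 by its longer exons (11066 bases against 1961 for Prrx2). Per kilobase, Prrx1 was at 19.5 CPM in WT and 6.58 in Yme1l-/- MEFs, and Prrx2 at 9.60 and 25.9. The lower sum is thus one of fragments, not of transcript numbers. In the authors' combined FPKM values, Prrx1 stood at 59.8 in WT and 20.6 in Yme1l-/- MEFs, and Prrx2 at 20.9 and 60.2. The 250 bases before the RefSeq start of each gene (build GRCm38.p6; Prrx1 at chr1:163313651-163313900, minus strand, and Prrx2 at chr2:30845117-30845366, plus strand) are shown so that the promoters of both paralogues can be compared. TAAT or its reverse complement ATTA, the core that many homeodomains bind, is in capitals.
Prrx1: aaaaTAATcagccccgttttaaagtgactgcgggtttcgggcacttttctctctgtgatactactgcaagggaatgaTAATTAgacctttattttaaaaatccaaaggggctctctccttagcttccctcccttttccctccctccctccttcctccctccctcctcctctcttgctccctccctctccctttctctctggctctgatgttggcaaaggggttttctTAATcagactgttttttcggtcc
Prrx2: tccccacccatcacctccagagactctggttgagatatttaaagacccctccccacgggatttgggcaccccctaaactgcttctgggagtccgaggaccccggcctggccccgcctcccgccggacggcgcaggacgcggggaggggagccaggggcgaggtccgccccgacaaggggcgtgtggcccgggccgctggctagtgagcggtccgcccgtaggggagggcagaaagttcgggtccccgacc
The Prrx1 window holds 4 CpG dinucleotides and 47.6% G and C, the Prrx2 window 21 and 70.0%. TAAT on either strand is in 54.9% of all 32851 RefSeq windows of this length.

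Pitx1, a gene of the hindlimb, had at most 2 fragments in any library, and Pitx3, of lens and midbrain, at most 9. Alx4, a factor of anterior limb and skull patterning, was at 5.08, 5.32 and 4.96 CPM in WT, and in the Yme1l-/- libraries it had 0, 4 and 0 fragments. The log2 fold change of Alx4 was -7.30 ± 0.41. As all its Yme1l-/- fragments came from replicate 2, the value was -10.56 without that culture, and -6.68 without Yme1l-/- replicate 3. Alx1 had no fragment. Shox2, which drives growth of the proximal limb, was at 10.9, 11.8 and 11.6 CPM in WT and at 23.4, 21.5 and 24.2 CPM in Yme1l-/- MEFs, without overlap. It rose by 1.01 ± 0.07 on the log2 scale, just past 2-fold. Otx1, a head and brain factor, rose by 0.68 ± 0.13 log2 units, while its paralogue Otx2 and the Gsc relative Gsc2 had no fragment. Gsc, a gene of the embryonic organizer, had 1 fragment in WT and 48 in Yme1l-/- MEFs over 3 libraries each, a ratio per library size of 34.7 with a 95% counting interval of 5.93 to 1397.

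**Figure D3:**
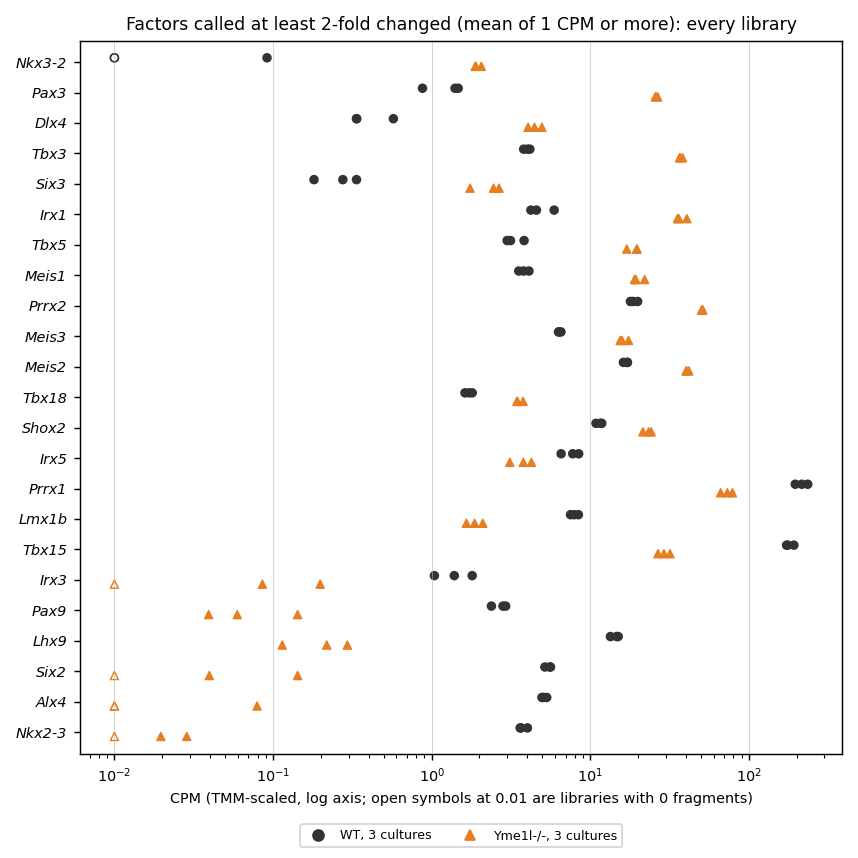
CPM in each library (x axis, logarithmic) of factors named in the text that were called at least 2-fold changed and whose mean reached 1 CPM in either genotype. Circles are the 3 WT and triangles the 3 Yme1l-/- cultures, and open symbols at 0.01 are libraries with no fragment. The factors were chosen by their change, and for none of those drawn do the genotypes overlap. Factors from Irx3 downwards in the plot lie below 0.3 CPM in all Yme1l-/- libraries.

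Of the 13 T-box genes, 6 were tested, with 5 called higher and 1 lower. Tbx15, which shapes limb and trunk skeleton and skin, was at 173, 176 and 192 CPM in WT and at 26.8, 29.2 and 31.8 CPM in Yme1l-/- MEFs. It fell by 2.62 ± 0.07 on the log2 scale (adjusted p = 1.26e-10). Tbx3 and Tbx5 lie next to each other on chromosome 5, 147.9 kb apart, and act in limb and heart, Tbx5 as the starter of the forelimb bud. Tbx3 was at 3.81, 4.03 and 4.17 CPM in WT and at 36.7, 38.2 and 36.8 CPM in Yme1l-/- MEFs. Tbx5 was at 3.14, 2.99 and 3.83 CPM in WT and at 17.0, 19.6 and 19.7 CPM in Yme1l-/- MEFs. Both neighbours thus stood far above the WT range in each Yme1l-/- library. The log2 fold changes were 3.22 ± 0.07 for Tbx3 (adjusted p = 2.77e-11) and 2.50 ± 0.11 for Tbx5 (adjusted p = 7.25e-09). Per kilobase of exon, Tbx5 was 1.45 ± 0.11% (SD, n = 3) of Tbx5 and Tbx15 together in WT and 34.0 ± 0.95% in Yme1l-/- MEFs.

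Tbx18, a gene of the epicardium and of mural cells, was at 1.72, 1.80 and 1.62 CPM in WT and at 3.77, 3.45 and 3.47 CPM in Yme1l-/- MEFs, a rise of 1.05 ± 0.14 on the log2 scale. Tbx20, a cardiac repressor, rose by 0.84 ± 0.05 log2 units from a mean of 32.5 CPM. Both genes lie on chromosome 9, whose loci had a median log2 fold change of -0.36, and with the medians of the chromosomes removed their values were 1.41 and 1.20. Tbx2, the close relative of Tbx3, had 6 to 11 fragments in each WT and 15 to 22 in each Yme1l-/- library. It entered the test through Yme1l-/- MEFs, and its call as higher (log2 fold change 0.88 ± 0.36) was lost in 10 of the alternative analyses. Tbx4, the hindlimb counterpart of Tbx5, had at most 3 fragments in any library, so that of the forelimb and hindlimb pair only the forelimb gene reached the filter. Tbx6, a gene of early mesoderm, had at most 13 fragments, and Tbx1, Tbx10, Tbx19, Tbx21 and Tbx22 at most 2.

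Among the TALE factors, all 3 Meis genes rose and the Irx genes split by their cluster. Meis1 was at 4.11, 3.54 and 3.80 CPM in WT and at 19.03, 19.4 and 22.0 CPM in Yme1l-/- MEFs. Meis2 was at 16.2, 17.2 and 17.1 CPM in WT and at 40.3, 41.8 and 40.5 CPM in Yme1l-/- MEFs. Meis3 was at 6.37, 6.54 and 6.31 CPM in WT and at 17.4, 15.5 and 15.9 CPM in Yme1l-/- MEFs. No library of one genotype reached the range of the other for any of the 3 genes, which bind DNA with Pbx and HOX proteins and mark the proximal limb. The log2 fold changes were 2.40 ± 0.10 for Meis1, 1.28 ± 0.06 for Meis2 and 1.34 ± 0.08 for Meis3. Their summed level was 27.1 ± 0.32 CPM (SD, n = 3) in WT and 77.2 ± 0.95 CPM in Yme1l-/- MEFs. The median log2 fold change over the loci of chromosome 11, which holds Meis1, was 0.36, and the value of Meis1 with chromosome medians removed was 2.04. Of the Pbx genes, whose proteins pair with Meis, none was called at least 2-fold changed. Pbx4 rose by 0.90 ± 0.18 log2 units and the locus that merges Pbx2 with Gpsm3, whose counts cannot be divided, by 0.34 ± 0.05. Pbx3 was not called (log2 fold change -0.046 ± 0.055, adjusted p = 0.48).

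The Iroquois genes (Irx) pattern the limb, heart and neural tissue and sit in 2 clusters of 3. In the cluster on chromosome 13, Irx1 was at 5.92, 4.58 and 4.23 CPM in WT and at 40.7, 36.2 and 35.5 CPM in Yme1l-/- MEFs, a log2 fold change of 2.93 ± 0.11 (adjusted p = 2.29e-09). Irx2, 665.1 kb away, was at 10.1, 9.71 and 8.76 CPM in WT and at 14.1, 12.4 and 12.03 CPM in Yme1l-/- MEFs, a rise of 0.43 ± 0.10 log2 units. Irx4, the third gene of that cluster, had no fragment in any library. In the cluster on chromosome 8 the direction was the opposite. Irx3 was at 1.39, 1.80 and 1.04 CPM in WT and had 3, 10 and 0 fragments in the Yme1l-/- libraries, a log2 fold change of -3.84 ± 0.56. It was -5.19 without Yme1l-/- replicate 2 and -3.20 without Yme1l-/- replicate 3. Irx5, 555.6 kb from Irx3, was at 8.46, 7.76 and 6.55 CPM in WT and at 4.26, 3.11 and 3.79 CPM in Yme1l-/- MEFs, a fall of 1.04 ± 0.14 log2 units. Irx6 had no fragment in any library. The loci of chromosome 8 had a median log2 fold change of -0.32, and Irx5 stood at -0.72 with chromosome medians removed. As homeoboxes of a family are alike, transcripts of the 91 factors (261 in GENCODE M21) were searched for shared runs, to see whether reads of 100 bases could be exchanged. No pair shared an exact run as long as a read. The Irx genes held the longest runs, all in coding sequence, among them 65 bases shared by Irx2 and Irx5, which changed in opposite directions, and 50 bases shared by the neighbours Irx3 and Irx5.
Irx2 and Irx5: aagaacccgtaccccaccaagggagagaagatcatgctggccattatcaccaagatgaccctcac
Irx3 and Irx5: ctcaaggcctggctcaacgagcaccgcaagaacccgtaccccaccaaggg
The longest run, 88 bases, was shared by Irx3 and Irx6.

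Six2 and its relatives, which act with EYA proteins in muscle, kidney, eye and face, included a pair of neighbours with opposite changes. Six2 is known for keeping kidney progenitors and facial mesenchyme undifferentiated, and Six3 for forebrain and eye. They lie 55.0 kb apart on chromosome 17. Six2 was at 5.62, 5.56 and 5.18 CPM in WT and had 5, 2 and 0 fragments in the Yme1l-/- libraries. Six3 was at 0.181, 0.336 and 0.276 CPM in WT and at 2.66, 2.46 and 1.75 CPM in Yme1l-/- MEFs. The level of each was thus near 0 where that of the other was higher, and the genotypes did not overlap for either. Both genes passed the filter only through the genotype in which they are higher, so the lack of overlap is not support for a difference. Six2 fell by 6.63 ± 0.39 on the log2 scale, and Six3 rose by 3.09 ± 0.29 log2 units. The value of Six2 was -7.90 without Yme1l-/- replicate 1 and -5.98 without Yme1l-/- replicate 3. Per kilobase of exon, Six3 was 1.86 ± 0.55% (SD, n = 3) of both in WT and 94.6 ± 6.19% in Yme1l-/- MEFs. The 250 bases before their RefSeq starts are given below with TAAT or ATTA in capitals (GRCm38.p6, Six3 at chr17:85620584-85620833, plus strand, and Six2 at chr17:85688255-85688504, minus strand), as the sequences just upstream of this pair.
Six3: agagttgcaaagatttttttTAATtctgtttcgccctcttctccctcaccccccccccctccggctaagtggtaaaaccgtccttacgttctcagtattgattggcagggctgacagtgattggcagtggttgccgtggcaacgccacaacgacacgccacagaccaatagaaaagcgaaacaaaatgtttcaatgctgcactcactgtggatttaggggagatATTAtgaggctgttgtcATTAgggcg
Six2: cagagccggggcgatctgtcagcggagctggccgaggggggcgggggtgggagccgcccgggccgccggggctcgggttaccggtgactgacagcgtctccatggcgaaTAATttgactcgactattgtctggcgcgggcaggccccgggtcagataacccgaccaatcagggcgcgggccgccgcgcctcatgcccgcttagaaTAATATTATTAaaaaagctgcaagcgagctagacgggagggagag
The Six2 window holds 26 CpG dinucleotides and the Six3 window 10.

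Six4, which acts in early muscle, fell by 0.36 ± 0.10 log2 units from a mean of 20.7 to 16.04 CPM. The loci of chromosome 12, which holds it, had a median log2 fold change of -0.44, and with chromosome medians removed Six4 stood at 0.076 without a call. Six5, a gene of muscle and lens, was not called (log2 fold change -0.021 ± 0.106, adjusted p = 0.87). Six6, of eye and pituitary, had no fragment.

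Of the 9 PAX genes 3 were tested. Pax2 and Pax9 passed the filter only through the genotype in which they are high. Pax3, a gene of neural crest and muscle progenitors, was at 0.876, 1.41 and 1.47 CPM in WT and at 26.5, 25.7 and 26.6 CPM in Yme1l-/- MEFs. Pax9, which acts in tooth, palate and vertebral mesenchyme, was at 2.93, 2.38 and 2.82 CPM in WT and at 0.143, 0.0595 and 0.0393 CPM in Yme1l-/- MEFs. The genotypes that carried these genes were thus opposite, and no library of one genotype reached the range of the other. The log2 fold changes were 4.39 ± 0.13 for Pax3 (adjusted p = 3.22e-10) and -5.14 ± 0.33 for Pax9. Pax2, a kidney and eye gene, had 1 fragment in the WT libraries together and 72 in the Yme1l-/- libraries, a ratio of 52.0 with a 95% counting interval of 9.04 to 2082. Pax6, a key gene of eye development, did not reach the filter, and was singled out after its counts were seen. It had 8, 10 and 11 fragments in WT and none in Yme1l-/- MEFs, at least 13.4-fold lower when 3 counts over the group are taken as the limit. The muscle progenitor gene Pax7 had at most 2 fragments, and Pax1, Pax4, Pax5 and Pax8 at most 3.

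Of the 10 LIM homeodomain genes 5 were tested, with 3 called lower and 2 higher. Lhx9, which acts with Lhx2 in limb outgrowth and in the gonad, was at 15.0, 14.7 and 13.4 CPM in WT and at 0.114, 0.218 and 0.294 CPM in Yme1l-/- MEFs. Lmx1b, the determinant of dorsal limb identity, was at 7.92, 7.51 and 8.42 CPM in WT and at 1.66, 2.10 and 1.87 CPM in Yme1l-/- MEFs. Lhx9 was thus close to absent from the Yme1l-/- libraries, while Lmx1b was still present in each. Lhx9 fell by 6.02 ± 0.19 on the log2 scale and Lmx1b by 2.07 ± 0.13 (adjusted p = 8.56e-08). Lhx6, of jaw mesenchyme and interneurons, fell by 0.65 ± 0.10 log2 units, and Lhx2 rose by 0.74 ± 0.19 log2 units at a mean of 1.38 CPM in WT and 2.32 CPM in Yme1l-/- MEFs. Lhx1, a kidney and head gene, had 1 to 4 fragments in each WT and 31 to 63 in each Yme1l-/- library, a log2 fold change of 3.54 ± 0.43. The remaining LIM genes (Lhx3, Lhx4, Lhx5, Lhx8, Lmx1a) had at most 4 fragments.

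The Dlx, Msx, Nkx, Barx and Emx genes formed the largest class, of which 18 of 27 did not reach the filter, 2 were called higher, 6 were called lower and 1 was not called. Nkx2-3, of gut and spleen mesenchyme, had 133, 120 and 118 fragments in WT and 1, 0 and 1 in Yme1l-/- MEFs. The ratio per library size was 257-fold lower in Yme1l-/- MEFs, with a 95% counting interval of 70.6 to 2129. Nkx3-2, a gene of cartilage and the vertebral column, went the other way, with 0, 3 and 0 fragments in WT and 72, 96 and 96 in Yme1l-/- MEFs, a ratio of 63.6 with an interval of 21.5 to 310.2. The WT fragments of Nkx3-2 all came from WT replicate 2. Nkx2-5, the cardiac factor, was below 1 CPM throughout, with 15 to 19 fragments in WT and 0 to 6 in Yme1l-/- libraries (log2 fold change -2.65 ± 0.53). The other 11 Nkx genes had at most 2 fragments.

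The Distal-less genes Dlx1 and Dlx2, neighbours on chromosome 2 and active in jaw mesenchyme and forebrain, differed by less than 2-fold. Dlx2 was at 32.3, 29.8 and 29.7 CPM in WT and at 24.9, 20.7 and 18.4 CPM in Yme1l-/- MEFs, a fall of 0.53 ± 0.10 log2 units. Dlx1 fell by 0.19 ± 0.07 log2 units (adjusted p = 0.0285), but was not called in 8 of the alternative analyses. Dlx4, from another pair, was at 0.574, 0.336 and 0.337 CPM in WT and at 4.06, 4.96 and 4.46 CPM in Yme1l-/- MEFs. Every Yme1l-/- library thus lay far above the WT range of Dlx4, and the log2 fold change was 3.42 ± 0.21 (adjusted p = 9.84e-08). It lies on chromosome 11 and stood at 3.07 with chromosome medians removed. Its neighbour Dlx3, a skin and tooth gene, had at most 11 fragments, and the limb pair Dlx5 and Dlx6 at most 5. Emx2, of forebrain, kidney and shoulder blade, fell by 0.71 ± 0.06 log2 units from a mean of 30.6 to 18.7 CPM. Emx2os, the antisense transcript beside it, was the only one tested of 13 antisense loci named after members and rose by 0.65 ± 0.15 log2 units (adjusted p = 0.00293), although whether fragments were counted by strand is not stated. Msx1, a target of bone morphogenetic proteins in limb and face, fell by 0.73 ± 0.12 log2 units, and its relative Msx2 was not called (log2 fold change 0.18 ± 0.12, adjusted p = 0.20). Msx3, Emx1, Barx1 and Barx2 had at most 3 fragments in any library.

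Divided by exon length, the levels show which factors were abundant in each genotype. In WT, Tbx15 stood highest at 48.1 ± 2.78 CPM per kilobase (SD, n = 3), followed by Prrx1 at 19.5 ± 1.76. The merged Pbx2 locus (11.7), Dlx2 (10.7 ± 0.53), Emx2 (10.2 ± 0.47) and Prrx2 (9.60 ± 0.51) were also among the higher levels, and Dlx2 and Emx2 were within 1 SD of each other. In Yme1l-/- MEFs, Prrx2 stood highest at 25.9 ± 0.23, followed by the merged Pbx2 locus (14.9) and Irx1 (14.3 ± 1.07). Tbx15 (7.81 ± 0.68), Dlx2 (7.47 ± 1.16), Shox2 (6.96 ± 0.43) and Prrx1 (6.58 ± 0.56) were also among the higher levels, with neighbouring values in this order within 1 SD of the more variable gene. Not divided by length, fragments of the 91 factors together summed to 935.3 ± 34.0 CPM in WT and to 795.3 ± 11.7 CPM in Yme1l-/- MEFs. Long transcripts such as that of Prrx1 weigh more in these sums, which do not compare numbers of transcripts.

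**Figure D4:**
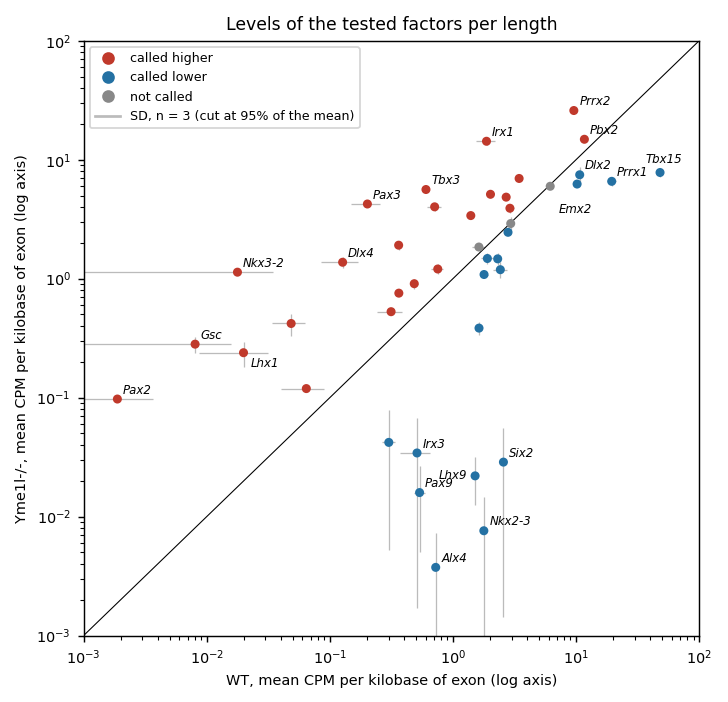
Mean level of tested factors in WT (x axis) and in Yme1l-/- MEFs (y axis), in CPM per kilobase of exon on logarithmic axes, with grey bars for the SD of 3 cultures (shortened to 95% of the mean where longer). The line marks equal levels. Tbx15 (48.1 and 7.81) and Prrx1 lie to the right of the line, Prrx2 and Irx1 above it, and Irx3, Pax9, Lhx9, Six2, Alx4 and Nkx2-3 lie below 0.1 in Yme1l-/- MEFs.

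Several members are chromosome neighbours. Within 1 Mb of each other lay 27 pairs of factors, of which 7 had both genes tested. In 4 of the 7 pairs both genes were called in the same direction: Tbx3 with Tbx5 and Irx1 with Irx2 higher, Irx3 with Irx5 and Dlx1 with Dlx2 lower. Of these, Irx3 entered the test only through WT, so its call is not support, and Dlx1 lost its call in 8 of the alternative analyses. In 1 pair, Six3 and Six2, the calls were opposite, and each gene entered the test through the genotype in which it is higher. Of all 163457 pairs of tested loci within 1 Mb, 31.9% were both called in the same direction and 15.7% in opposite directions. In the other pairs of factors, among them Lmx1b with Pbx3, 1 gene was not called. In 12 further pairs only 1 gene was tested, among them Dlx4 beside Dlx3 and Pax9 beside Nkx2-9 and Nkx2-1, which had at most 2 fragments in any library.

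**Figure D5:**
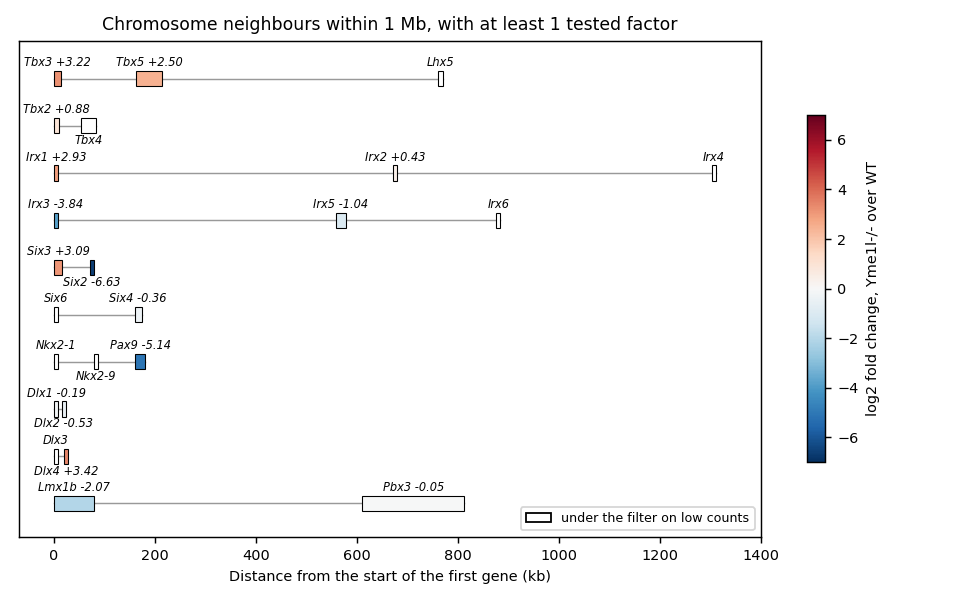
Groups of factors that lie within 1 Mb of each other, with at least 1 tested gene per group, drawn for genes named in the text. The x axis gives the distance in kb from the start of the first gene, boxes are genes to scale (at least 8 kb wide for visibility), and the colour and number give the log2 fold change of Yme1l-/- over WT, with white boxes for genes under the filter on low counts. Six3 (3.09) and Six2 (-6.63) are the neighbours of opposite direction.

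Genes that work with these factors were taken from 2 lists. Of 30 signals and transcription factors of limb and fibroblast patterning, 19 were tested, with 4 called higher and 13 lower and a median log2 fold change of -0.38, beside 33.6% and 34.1% of all loci. Changes of at least 2-fold were called for 2 higher and 5 lower, beside 9.1% and 8.63% of all loci, and 2 of the 5, Evx2 and Sall1, passed the filter only through WT. Grem1, a secreted antagonist of bone morphogenetic proteins, was at 4.99, 7.91 and 5.51 CPM in WT and at 377, 419 and 405 CPM in Yme1l-/- MEFs (log2 fold change 6.03 ± 0.16), and the growth factor gene Fgf10, at a lower level, rose by 2.71 ± 0.19 log2 units. The cartilage factor Sox9 fell by 4.31 ± 0.15 log2 units from a mean of 25.5 to 1.26 CPM, the mesenchymal factor Twist1 by 1.88 ± 0.08 log2 units and the receptor gene Fgfr1 by 1.09 ± 0.05 log2 units. Evx2, a homeobox gene beside the HoxD cluster, and Sall1, a zinc-finger gene of limb and kidney, had no fragment in any Yme1l-/- library, at least 244.6-fold and 151.8-fold lower against 3 counts over the group. Fgf10, Evx2 and Sall1 were below the level set for naming and were named after their values were seen.

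Of 27 genes for cofactors of homeodomain proteins, 20 were tested, with 10 called higher and 6 lower and a median of 0.12. Of all loci 67.7% were called and 17.7% were called at least 2-fold changed, and of the cofactor genes 4 were called at least 2-fold higher and 3 lower, with Lmo1 of the latter tested only through WT. Eya4 and Eya1, partners of Six2 and its relatives, rose by 3.16 ± 0.08 and 2.01 ± 0.10 on the log2 scale, from means of 6.49 and 4.11 to 57.8 and 16.6 CPM. Ssbp2, a component of LIM complexes, rose by 1.40 ± 0.07 log2 units. The TALE genes Mkx, a tendon factor, and Tgif1, a repressor, were called in opposite directions (log2 fold changes of 3.59 ± 0.17 and -1.18 ± 0.11). Tle3, a Groucho corepressor, fell by 1.25 ± 0.05 log2 units. Lmo1, a LIM-only protein gene, had 68 fragments in WT and 2 in Yme1l-/- MEFs, a ratio of 47.1 with a 95% counting interval of 12.5 to 397. Mkx and Lmo1 were named after their values were seen.

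The promoter windows of the members were compared with those of all genes as a description. RefSeq windows matched 64 of the 91 factors (78 windows of 250 bases before a start). Their median ratio of observed to expected CpG was 0.67 and that of all 32851 windows 0.37, with a median G and C content of 60.8% and 52.4%. TAAT on either strand was in 47.4% of the members' windows and in 54.9% of all, and its palindromic double TAATTA in 7.69% and 4.84%. The T-box motif GGTGTGA, read on both strands, was in 0 of the 78 windows and in 3.33% of all. These motifs are short, TAATTA always holds TAAT, and a match is not a site of binding.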

How the data were processed

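Poly(A)-selected RNA of 3 WT and 3 Yme1l-/- cultures was sequenced from stranded libraries. The submitters' processing notes name HISAT2 2.0.4, StringTie 1.3.3 and Cuffdiff 2.2.1 and build GRCm38, and the strand setting of the counting is not given in the sources used here. The deposited count table holds raw fragment counts per assembled locus, with overlapping genes merged. The authors' comparison table holds FPKM values as 1 combined value per genotype, printed only for Prrx1 and Prrx2, beside fold changes, p-values and q-values that were not used.

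Counts were fitted in R 4.3.3 with edgeR 4.0.16 (limma 3.58.1): filterByExpr with a minimum count of 10, TMM factors, robust quasi-likelihood fit and two-sided test without covariates, Benjamini-Hochberg adjustment over 13867 loci, and calls at an adjusted p under 0.05. CPM uses TMM-scaled library sizes, and values per kilobase use the GENCODE M21 exon union. Ratios of 1 to 3 counts carry exact 95% intervals that cover counting error only. Steps were tested on simulated data. Alternatives were other scaling, filters, DESeq2 1.42.0, a replicate block, thinned libraries, chromosome medians removed, left-out cultures, and Paxx left out, the last chosen after seeing the data.

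Named with values were members called at least 2-fold changed with a mean of at least 1 CPM, their paralogues and neighbours, and list genes called at least 2-fold changed with a mean of at least 10 CPM. Gsc, Pax2, Lhx1, Nkx2-5, Otx1, Emx2 and Msx1 fall outside this rule and were named after their values were seen. A few members enter the counts but are not reported here by themselves. The members and lists were chosen with earlier results of these data known. Promoter sequences are from RefSeq (GRCm38.p6).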

Additional observations from a re-analysis of the deposited data

How the results depend on the processing

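Of the 47 tested members, 41 kept direction and call under every alternative in which they were tested. The 13 genes that met the filter in only 1 genotype were not tested with 10 fragments required in every library. All of these 13 but Tbx2 are among the 41, so for them the count leaves out that alternative. With 10 fragments required in every library, 11 members were called lower and 4 at least 2-fold lower, since factors near 0 in Yme1l-/- MEFs were then not tested. The median log2 fold change of the members was 0.49 with upper-quartile scaling (which moved the median of all loci to 0.0552 and the share of calls that were higher from 49.6% to 55.1%), 0.11 without the filter, 0.56 with 10 fragments in every library, 0.35 with chromosome medians removed, 0.55 without merged loci, 0.39 without Paxx, and 0.35 to 0.44 when each culture was left out in turn. Six4 turned to 0.076 with chromosome medians removed, and the uncalled Pbx3 and Six5 to 0.013 and 0.038 with upper-quartile scaling. Six5 ranged from -0.084 to 0.081 when each culture was left out in turn. Tbx2 lost its call in 10 alternatives and Dlx1 in 8 (adjusted p up to 0.114). Without WT replicate 2, members called were 25 higher and 18 lower. With the replicate number as a block, 24 were called higher and 18 lower, with a median of 0.43 and 9794 loci called. Deviations of same-numbered cultures correlated at 0.198, -0.158 and 0.0482, and those of different-numbered cultures at -0.234 to 0.236. These values do not settle whether the numbers pair the cultures. Factors with fewer than 10 fragments per library remain unresolved at this depth.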
